A study of Mus musculus with 9 samples.

Results

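The miR-15/16 family is a group of microRNAs that share their seed, the short stretch near the 5′ end through which a microRNA pairs with its target messages. Members of the family are known to repress cyclins and other drivers of the passage from G1 into S phase and the survival factor BCL2, and they are counted among the microRNAs that restrain the cell cycle. Ionizing radiation is known to halt the cell cycle through DNA damage signalling, and alpha particles leave dense, clustered damage along their tracks. The 6 mouse members described here are mmu-miR-15a-5p, mmu-miR-15b-5p, mmu-miR-16-5p, mmu-miR-195a-5p, mmu-miR-322-5p and mmu-miR-497a-5p, written without the species prefix from here on. They were found by name among the 1881 mouse miRNAs measured on the arrays, and all 6 were present.

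Bone marrow cells of male C57BL/6 mice, 8 weeks old, were cultured for a week and then kept for another week in differentiation medium with beta-glycerophosphate, ascorbic acid 2-phosphate and dexamethasone, which yields osteoblastic cells. The cultures were exposed to alpha particles at 0, 0.5 or 1 Gy (0.22 Gy per minute), and total RNA of each sample was labelled with Cy3 and hybridised to its own array, 3 arrays for each dose. The 0 Gy samples came from the same kind of culture without a dose, and all 3 groups shared strain, sex, age and medium. How long after exposure the RNA was taken is not stated. The labels also do not say whether the 3 samples of a group are separate animals or cultures, so a p-value here reflects only sample-to-sample spread, some of which may be technical. In such bulk RNA, fewer cells of a type and less RNA per cell cannot be told apart.

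The sequences are shown because they define the family and because members that differ at few bases differed in whether they were above background. Capitals mark the seed, bases 2 to 8 counted from the 5′ end. All 6 members matched an entry of RefSeq on build GRCm38.p6.
mmu-miR-15a-5p: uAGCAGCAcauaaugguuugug
mmu-miR-15b-5p: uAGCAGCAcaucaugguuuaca
mmu-miR-16-5p: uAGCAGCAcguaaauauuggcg
mmu-miR-195a-5p: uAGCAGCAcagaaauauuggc
mmu-miR-322-5p: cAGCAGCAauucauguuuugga
mmu-miR-497a-5p: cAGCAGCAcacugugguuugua

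All 6 members carry the same seed. Over the whole mature sequence, seed included, miR-15a-5p and miR-15b-5p are identical at 18 of 22 positions and differ by A12C, G20A, U21C and G22A, with the base of miR-15a-5p written first and positions counted from the 5′ end. miR-16-5p and miR-195a-5p are identical at 19 of the 21 positions they share and differ by G10A and U11G, with the base of miR-16-5p first. miR-15b-5p is identical to miR-16-5p at 14 of 22 positions and to miR-497a-5p at 16 of 22.

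Most of the family lies in pairs. On chromosome 3, miR-15b-5p (chr3:69009775-69009796, plus strand) and a copy of miR-16-5p from the gene Mir16-2 (chr3:69009918-69009939, plus strand) start 143 bases apart within the span of Smc4, which encodes a condensin subunit. On chromosome 14, miR-15a-5p (chr14:61632075-61632096, minus strand) and the other copy of miR-16-5p, from Mir16-1 (chr14:61631936-61631957, minus strand), start 139 bases apart within the span of the long noncoding RNA gene Dleu2. Both copies give the same mature miR-16-5p, so the array reads their sum. On chromosome 11, miR-497a-5p (chr11:70234730-70234751, plus strand) and miR-195a-5p (chr11:70235062-70235082, plus strand) start 332 bases apart. miR-322-5p (chrX:53054306-53054327, minus strand) lies within the span of the noncoding gene C430049B03Rik. All these positions are from RefSeq on GRCm38.p6.

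Before the results, 2 of the 9 arrays have to be set apart. The background error that the scanner software assigned to an array was 19.4 signal units on 0.5 Gy array 1 and 11.2 on 1 Gy array 1, against 1.60 to 2.83 on the other 7. The lowest signal of any probe above background was 96.3 and 55.5 units on those 2 arrays and 7.52 to 13.8 on the others. The number of miRNAs above background ranged from 144 to 234 per array, and 446 of 1881 (23.7%) were above it on at least 1 array. Stromal marker miRNAs, which mark mesenchymal and osteoblastic cells, were above background for 4 of 6, with a summed scaled signal of 89.2 to 1164 at 0 Gy, 615 to 1108 at 0.5 Gy and 573 to 1119 at 1 Gy. Of the blood cell markers, 1 of 4 myeloid (miR-223-3p), 1 of 3 lymphoid (miR-181a-5p) and 0 of 3 erythroid miRNAs were above background on any array, as was 0 of 1 endothelial marker.

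Each member is read by 2 probes of 15 spots each. A probe counted as above background if 50% or more of its usable spots on the array were marked well above background, and a member when at least 1 of its probes was. By this measure 3 of the 6 members were seen. miR-15b-5p was above background on 6 of the 9 arrays, miR-16-5p on 4 and miR-497a-5p on 4. miR-15a-5p, miR-195a-5p and miR-322-5p had no spot well above background on any array. No member was above background on either high-background array, nor on 0 Gy array 1, which is counted among the low-background arrays. Among those, 0 Gy array 1 had the highest background error (2.83 units). Its lowest signal of a probe above background (13.8 units) was also the highest among them. It had the most miRNAs above background of any array (234). The scanner software's own mark gave 6 arrays for miR-15b-5p, 5 for miR-16-5p and 5 for miR-497a-5p, and 0 for the other 3 members.

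**Figure D1:**
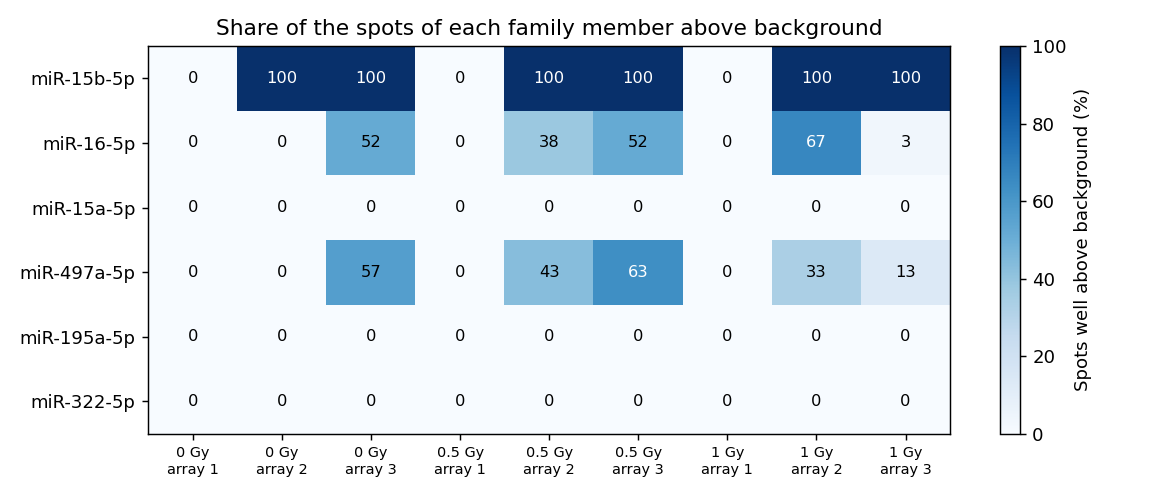
Each cell is the percent of a member's usable spots that were marked well above background on an array, with members in rows and the 9 arrays in columns. miR-15b-5p is at 100 on 6 arrays and at 0 on 0 Gy array 1 and both high-background arrays (0.5 Gy array 1 and 1 Gy array 1), and 3 members are at 0 throughout.

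miR-15b-5p was above background on arrays 2 and 3 of every dose, and its readings were spread most widely among the unirradiated arrays. The values are scaled signals in array units, the sum of a member's 2 probes after each array was brought to a common 75th percentile. At 0 Gy miR-15b-5p read 2.84 on array 1, where it was not above background, 42.4 on array 2 and 222 on array 3. At 0.5 Gy it read 166 on array 2 and 214 on array 3, and 64.9 on the high-background array 1, where it was not above background. At 1 Gy it read 168 on array 2 and 168 on array 3, and 57.0 on the high-background array 1, again not above background. The 4 irradiated arrays of low background lay within 1.29-fold of each other, while 0 Gy array 3 read 5.23 times 0 Gy array 2. The highest of all 9 readings was an unirradiated one, so the doses overlapped.

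Counted over all 9 arrays, the mean log2 scaled signal of miR-15b-5p was 5.57 ± 2.14 at 0 Gy, 7.05 ± 0.91 at 0.5 Gy and 6.87 ± 0.90 at 1 Gy (SD, n = 3 each). Values under a floor of 11.46 units, the 1st percentile of readings above background, were set to that floor. Without the 2 high-background arrays the scaling and the floor were computed again, on 174 probes, with a floor of 8.90 units and 0 Gy array 1 divided by 2.82. The means were then 5.60 ± 2.46 at 0 Gy (n = 3), 7.76 ± 0.30 at 0.5 Gy and 7.51 ± 0.40 at 1 Gy (n = 2 each). The spread at 0 Gy was the widest of the 3 doses in both sets. On 0 Gy array 1 miR-15b-5p was under the floor in both sets. Its 0 Gy means and SDs, and its differences from 0 Gy, therefore depend on where the floor was set.

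**Figure D2:**
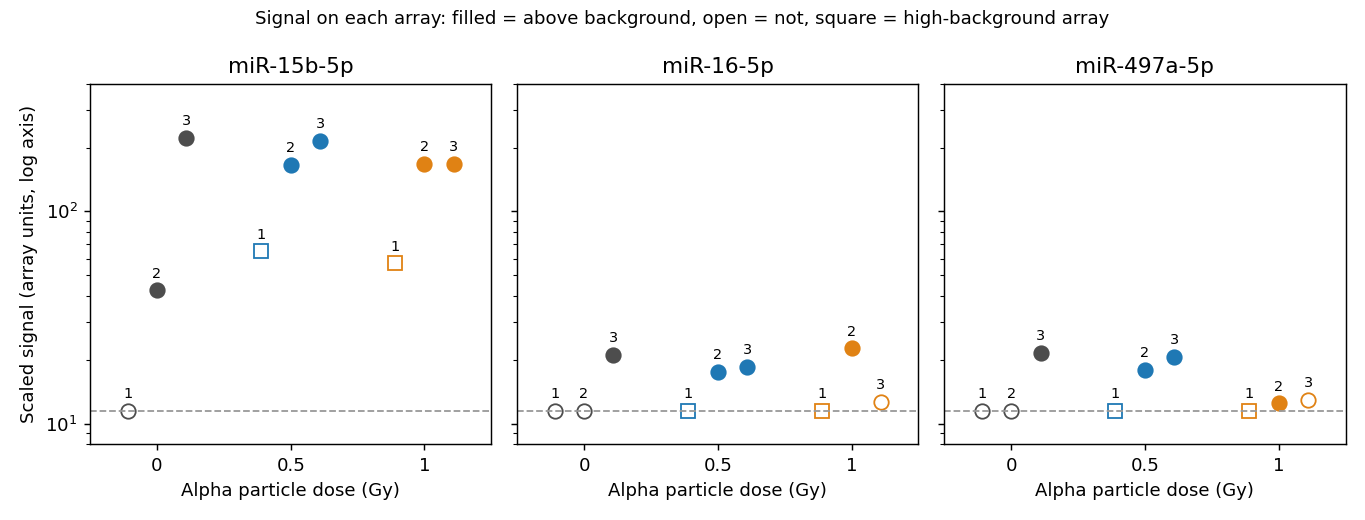
Scaled signal in array units (log axis) against alpha particle dose for the 3 members seen on any array, 1 symbol per array with its number. Filled symbols were above background, open ones were not, squares are the high-background arrays, and readings under the floor of 11.46 units (dashed line) are drawn on it. The panels belong to different probes and are not to be set against each other. For miR-15b-5p the 0 Gy arrays span the whole range, from the floor to 222, and the filled points at 0.5 and 1 Gy lie between 166 and 214.

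Within an array the readings of miR-15b-5p were tight. On the 6 arrays where it was above background, the coefficient of variation over the spots of a probe was 3.77% to 17.7%, with a median of 6.50%. Spots of 1 array share their sample, labelling and slide, so this does not measure the spread between samples. Before scaling, the sums of the 2 probes ran from 5.48 to 205 units over the 7 arrays of low background. The scaling over 9 arrays divided 0 Gy array 1 by 1.93 and the other 8 arrays by 0.815 to 1.07.

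The high-background arrays bound the family poorly. The stronger probe of miR-15b-5p read 39.1 units on 0.5 Gy array 1, where 15.1% of the probes that were not above background read higher. On the other 0.5 Gy arrays the same probe read 82.5 and 127 units before scaling, and the lowest signal above background on array 1 (96.3) lies between them. On 1 Gy array 1 the probe read 32.4 units, and 7.46% of the probes not above background read higher. The other 1 Gy arrays gave 106 and 114 for this probe, both over the lowest signal above background on array 1 (55.5). On 0 Gy array 1 the probe read 4.13 units, and 20.4% of the probes not above background read higher there.

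miR-16-5p, the member made from 2 gene copies, was close to the detection limit. At 0 Gy its scaled signal was 3.29, 6.82 and 21.1 on arrays 1, 2 and 3, above background on array 3. At 0.5 Gy it was 17.5 and 18.6 on arrays 2 and 3, both above background. At 1 Gy it was 22.7 on array 2, above background, and 12.7 on array 3, where 1 of 30 spots was. On the high-background arrays its signal was negative after background subtraction, at -58.2 and -31.6. The readings of the 3 doses overlapped, and the highest low-background readings of each dose lay between 18.6 and 22.7.

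miR-497a-5p was above background on the same 4 arrays as miR-16-5p. At 0 Gy its scaled signal was 0.65, 3.35 and 21.5 on arrays 1, 2 and 3, above background on array 3. At 0.5 Gy it was 17.97 and 20.7 on arrays 2 and 3, both above background. At 1 Gy it was 12.5 on array 2, above background, and 13.0 on array 3, where 4 of 30 spots were. Before scaling, its stronger probe read 10.8 units on 1 Gy array 3, not above background, and 10.2 on 0.5 Gy array 2, above it. The high-background arrays gave -8.76 and -6.28. Both 1 Gy readings were under both 0.5 Gy readings, with 0 Gy array 3 above all of them.

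The other 3 members had low or negative readings. The highest scaled signal on a low-background array was 6.63 for miR-15a-5p, 3.01 for miR-195a-5p and 1.17 for miR-322-5p, all under the floor. On 0.5 Gy array 1 and 1 Gy array 1, of high background, miR-15a-5p read -70.5 and -41.0, miR-195a-5p -40.4 and -30.2, and miR-322-5p -29.8 and -21.6. On 0 Gy array 3, the array of highest miR-15b-5p, the 2 probes of miR-15a-5p read 1.71 and 3.29 units, under the lowest signal above background there (7.94). These 3 members were not well above background at any dose, so no fold between doses is given, which does not show that they were absent.

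With a test across all miRNAs, no dose difference was found for any member. The fit with limma over all 9 arrays used miRNAs above background on all 3 arrays of at least 1 dose, and no member met that, because miR-15b-5p was missing from 1 array of each dose. That fit tested 134 miRNAs and called 0 in each of the 3 comparisons (0% called at an adjusted p under 0.05), with 2, 4 and 0 miRNAs at an unadjusted p under 0.05 for 0.5 against 0 Gy, 1 against 0 Gy and 1 against 0.5 Gy. Without the 2 high-background arrays, 3 of the 6 members entered a fit of 179 miRNAs. None was above background on all 3 arrays at 0 Gy. miR-15b-5p entered through both irradiated doses, and miR-16-5p and miR-497a-5p through the 0.5 Gy arrays alone. For these members, readings above background at 0.5 Gy were thus a condition of being tested. limma called 0 of the 3 members and 0 of the 179 miRNAs in each comparison (0% called), with 2, 7 and 5 miRNAs and 0 members at an unadjusted p under 0.05.

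For miR-15b-5p on these 7 arrays, the 0.5 Gy mean was higher than the 0 Gy mean by 2.17 log2 units (SE 1.24, 95% interval -0.76 to 5.09, limma adjusted p = 0.708). The 1 Gy mean was higher than the 0 Gy mean by 1.91 (SE 1.24, 95% interval -1.01 to 4.84, limma adjusted p = 0.541). Between the irradiated groups the difference, 1 Gy minus 0.5 Gy, was -0.25 (SE 1.36, 95% interval -3.46 to 2.95, limma adjusted p = 0.992). All 3 intervals include 0, and the interval for 1 against 0.5 Gy spans several fold in both directions. Both differences against 0 Gy moved by over 1.5 times without 0 Gy array 1. With it left out as well, in a fit of 180 miRNAs that again called 0 (0% called, with 0, 13 and 9 at an unadjusted p under 0.05), they were 0.84 (SE 0.65, adjusted p = 0.900) and 0.62 (adjusted p = 0.611).

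When all 9 arrays were kept and every miRNA with a reading over the floor was tested, 1011 miRNAs entered, of which limma called 0 (0% called) and 4, 5 and 0 had an unadjusted p under 0.05. The median difference of these 1011 miRNAs was itself 0.92 for 0.5 against 0 Gy, 0.45 for 1 against 0 Gy and -0.40 for 1 against 0.5 Gy. The differences of miR-15b-5p were then 1.47 for 0.5 against 0 Gy (SE 1.08, 95% interval -1.05 to 3.99, adjusted p = 0.445), 1.30 for 1 against 0 Gy (adjusted p = 0.942) and -0.17 for 1 against 0.5 Gy (adjusted p = 1). The arrays lay on 3 slides, 6 of them on 1 slide with arrays 1 and 3 of each dose. It therefore holds both high-background arrays and 0 Gy array 1, where miR-15b-5p was not above background. Within that slide the same 3 differences were 1.21, 0.94 and -0.27, and with the slide as a block 1.18, 1.00 and -0.17, as values with no test because miR-15b-5p did not pass the detection rule there. With the replicate number pairing the 6 irradiated arrays, 1 against 0.5 Gy, limma tested 40 miRNAs and called 3 (7.5% called), and 0 of the 6 members entered that fit. Each slide had its own scan, so slide and scan cannot be told apart.

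**Figure D3:**
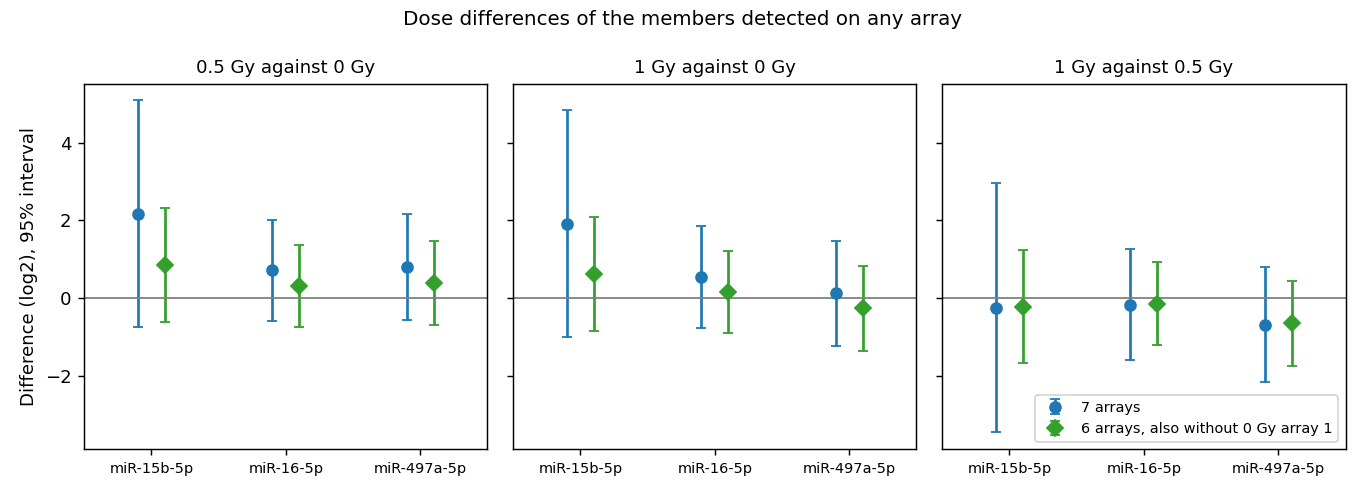
Differences of mean log2 scaled signal between doses with 95% intervals from limma for the 3 members seen on any array, on the 7 arrays of low background (circles) and on 6 arrays, also without 0 Gy array 1 (diamonds). All intervals include 0. The difference of miR-15b-5p at 0.5 Gy against 0 Gy goes from 2.17 to 0.84 when 0 Gy array 1 is left out.

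For miR-16-5p on the 7 arrays, the mean log2 signal was 3.66 ± 0.88 at 0 Gy (SD, n = 3), 4.38 ± 0.097 at 0.5 Gy and 4.20 ± 0.19 at 1 Gy (n = 2 each). Its difference was 0.72 for 0.5 against 0 Gy (SE 0.55, limma adjusted p = 0.744), 0.54 for 1 against 0 Gy (adjusted p = 0.627) and -0.18 for 1 against 0.5 Gy (adjusted p = 0.992). For miR-497a-5p the means were 3.67 ± 0.89, 4.47 ± 0.18 and 3.79 ± 0.45. Its differences were 0.80 (SE 0.58, limma adjusted p = 0.733), 0.12 (adjusted p = 0.911) and -0.69 (SE 0.63, adjusted p = 0.992). Both members entered this fit through the 0.5 Gy arrays alone, so their differences that involve 0.5 Gy are not independent of the detection rule. On 0 Gy arrays 1 and 2, miR-16-5p and miR-497a-5p were not above background and were set to the floor. The 0 Gy means and SDs of these members, and their differences from 0 Gy, therefore depend on where the floor was set, as do those of miR-15b-5p through 0 Gy array 1. The median difference of all 179 miRNAs in the same fit was 0.27, 0.13 and -0.18. With 0 Gy array 1 left out as well, the differences of miR-16-5p from 0 Gy were 0.30 at 0.5 Gy and 0.16 at 1 Gy. Those of miR-497a-5p were then 0.39 and -0.27, the second on the other side of 0.

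The miRNAs whose readings followed miR-15b-5p most closely were let-7a-5p (Pearson r = 0.993 over 9 arrays), let-7c-5p (r = 0.991) and miR-125b-5p (r = 0.977), out of 134 compared. The let-7 miRNAs restrain proliferation in many differentiated cells, and miR-125b-5p is among the stromal markers. Over the 7 arrays of low background r was 0.995, 0.999 and 0.995. miR-125a-5p came second on those 7 arrays (r = 0.998 of 178 compared) but had r = 0.660 over 9. These are descriptions across arrays that share their scaling, and 0 Gy array 1 has the lowest reading of each of the first 3. On 0 Gy array 1, array 2 and array 3, let-7a-5p had a log2 scaled signal of 4.42, 7.05 and 9.60, and miR-125b-5p 5.51, 7.35 and 9.29. The summed stromal markers read 89.2, 315 and 1164 units on the same arrays, and the summed myeloid markers 3.21, 9.75 and 44.6. On arrays 1 and 2 of 0 Gy, 0 of 4 myeloid markers were above background. The lymphoid and erythroid sums did not rise in this order. Lymphoid markers summed to 88.0, 70.3 and 203 units, and the erythroid sum, with 0 of 3 markers above background, was highest on array 1. The part of these marker sets in the readings of miR-15b-5p was not tested.

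**Figure D4:**
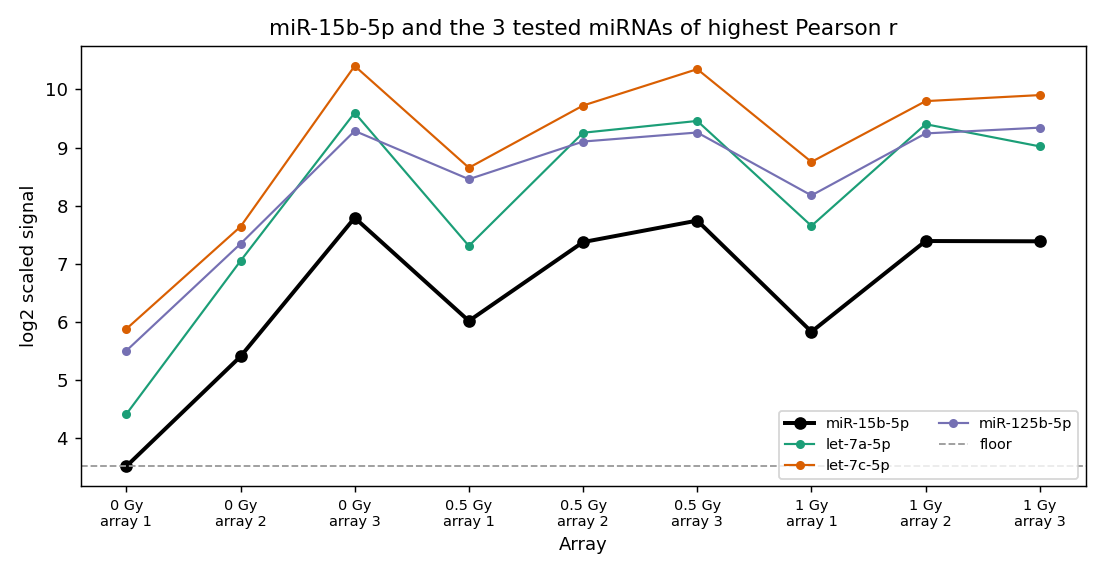
log2 scaled signal of miR-15b-5p and of the 3 tested miRNAs with the highest Pearson r to it, on each of the 9 arrays. Lines only join the points of a miRNA, and levels of different miRNAs are not to be compared. All 4 are lowest on 0 Gy array 1, next lowest on 0 Gy array 2 and then on the high-background arrays (array 1 of 0.5 and of 1 Gy).

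A wider group of miRNAs whose seeds resemble that of the family gave a similar picture. miR-103-3p and miR-107-3p, which are near-identical and are known for roles in lipid and insulin metabolism, were above background on 5 of the 9 arrays each, and miR-503-5p on none. The scaled signal of miR-103-3p was 1.37, 7.91 and 43.3 on the 0 Gy arrays, 32.8 and 41.2 on the 0.5 Gy arrays 2 and 3, and 39.8 and 33.02 on the 1 Gy arrays 2 and 3. That of miR-107-3p was 0.76, 7.59 and 33.1, then 28.8 and 29.4, then 32.7 and 22.6 on the same arrays. Both were negative on the high-background arrays. For both, 0 Gy array 3 was above every irradiated array and 0 Gy arrays 1 and 2 below all 4 of low background. The probes of such close sequences may share signal, so the pair is not 2 separate readings. Neither was called by limma on the 7 arrays.

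Other miRNAs with the same bases 2 to 8 on the array were miR-195b, miR-6342, miR-6353 and miR-6419, and 0 of these 4 were above background on any array. The other arm of the family's hairpins was on the array for 7 miRNAs, and 0 of 7 were above background. Among 17 other miRNAs known to act on the cell cycle, 10 were above background on at least 1 array, against 446 of all 1881 (23.7%). On the 7 arrays limma called 0 of the 10 and 0 of all 179 miRNAs in each comparison. All 10 had a higher mean at 0.5 and at 1 Gy than at 0 Gy. Their median differences were 1.56 and 1.39, against 0.27 and 0.13 for all 179. These 10 share the same arrays, so their common direction is not 10 separate readings. The 4 of largest mean signal were let-7b-5p, let-7c-5p, let-7a-5p and miR-34a-5p, a known target of p53. miR-34a-5p had a log2 scaled signal at the floor of 3.52, then 4.31 and 6.76 on the 0 Gy arrays, 6.24 and 6.55 on the 0.5 Gy arrays 2 and 3, and 6.20 and 6.47 on the 1 Gy arrays 2 and 3. Here too the highest reading was that of 0 Gy array 3.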

How the data were processed

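Each of the 9 samples has 1 one-colour Agilent miRNA array file. Per the file headers, the authors' scanner software was Feature Extraction 11.5.1.1, and the deposited values used are its processed signal, an intensity after background subtraction that is not normalized between arrays. No spot was saturated. From these, outlier spots were left out, spots were averaged per probe, and each array was scaled to a common 75th percentile over the 45 probes above background on all arrays. A miRNA's 2 or more probes were summed, the floor was set and log2 taken. Doses were compared with limma 3.58.1 in R 4.3.3, with Benjamini-Hochberg adjustment over all miRNAs tested. The fit was tested on simulated independent values with no floor and no high-background arrays, so that test does not cover these features of the data. The number of arrays limits the precision.

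The detection rule written for the 9 arrays left no member to test, so the members' statistics come from the fits without it or without the 2 high-background arrays. Every member is reported; of the listed groups, names follow detection, seed, mean signal or Pearson r. The members and lists were chosen with earlier results of these data known. Same-numbered 0.5 and 1 Gy arrays, by the numbers in the sample titles, deviated together over 134 miRNAs (r = 0.837, 0.749 and 0.587). The 0 Gy arrays did not follow them (-0.13 to 0.16). Array 1 of both irradiated doses is a high-background array, and same-numbered irradiated arrays share a slide. The deviations were taken from the mean of each dose, so these r values do not establish that samples were paired. The 9 value columns of the series table were not used, as their names match no sample, and 0 of its rows name a member. Mature sequences and positions are from RefSeq on GRCm38.p6.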

Additional observations from a re-analysis of the deposited data

How the results depend on the processing

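In 26 alternatives to the 9-array analysis, and 28 for 1 against 0.5 Gy (scaling, background correction, floor, detection rule, slide, samples), limma called 0 members, though a member could be tested in only 7 of the 26. The smallest adjusted p of a member was 0.445 and the smallest unadjusted 0.0789. Leaving out each array in turn gave 0 called miRNAs in all 3 comparisons, and a member was tested in 3 of those 9 fits. With the replicate number as a block on all 9 arrays, 0 of 134 miRNAs were called and no member was tested (5, 7 and 0 miRNAs at an unadjusted p under 0.05). With that block on the 6 irradiated arrays alone, which was chosen after seeing the data, 3 of 40 miRNAs were called (7.5%). These were miR-3473a, miR-3473b and miR-7005-5p, named after their values were seen. With every miRNA over the floor tested, 0 of 981 were called (7 at an unadjusted p under 0.05), and miR-15b-5p differed by -0.17 (SE 0.47, adjusted p = 0.885). The fits without 0 Gy array 1 as well as the high-background arrays, and without those arrays and the detection rule, were also chosen after seeing the data.

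miR-15b-5p was higher at 0.5 than at 0 Gy in 26 of 26 alternatives, by 0.39 to 2.58 log2 units, and higher at 1 than at 0 Gy in 26 of 26, by 0.18 to 2.40. The alternatives reuse the same arrays, so a shared sign among them is not replication. Leaving out 1 array gave 0.45 to 2.58 and 0.27 to 2.40, lowest without 0 Gy array 1 and highest without 0 Gy array 3. For 1 against 0.5 Gy this range was -0.81 to 0.36. With 1 array left out, miR-16-5p ranged over -0.0082 to 0.49, -0.23 to 0.37 and -0.45 to 0.14 in the 3 comparisons, and miR-497a-5p over 0.020 to 0.58, -0.36 to 0.094 and -0.82 to -0.23. Over all alternatives miR-16-5p was higher than at 0 Gy in 22 of 26 at 0.5 Gy (-0.20 to 0.72) and in 20 of 26 at 1 Gy (-0.37 to 0.54). miR-497a-5p was higher in 25 of 26 at 0.5 Gy (-0.028 to 0.80) and in 5 of 26 at 1 Gy (-0.40 to 0.25), so these directions turned with the setting. The processing moved the median of the 134 miRNAs. For 0.5 and 1 against 0 Gy it was -0.47 and -0.49 as scaled here, -0.66 and -1.08 on all probes, -0.53 and -0.59 with quantile normalization -0.84 and -0.72 unscaled, -0.90 and -0.95 with the scanner software's total gene signal, and 0.32 and 0.11 with normexp, while miR-15b-5p was above 0 in each. With normexp background correction, run on median signals, miR-497a-5p was 0.25 higher at 1 than at 0 Gy; the cause was not tested. Signal over background limits miR-16-5p and miR-497a-5p, which lie near the floor.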

Other observations

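The ratio of the 2 probes of miR-15b-5p differed between array 3 and array 2 of each dose. The stronger probe read 1.78, 1.80 and 1.75 times the weaker on array 3 of 0, 0.5 and 1 Gy, all on the slide of 6 arrays, and 1.47, 1.42 and 1.44 times on array 2 of each dose, which lie on the other slides. Slide and array number cannot be told apart for these 6 readings, and the difference was not tested.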
